A study of Mus musculus with 5 samples.

Results

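Reticular stromal cells of the femur marrow were compared between 2 libraries of mice aged 18 months, one prepared 1 week after surgical ablation of the marrow (labelled aged-injury) and one from uninjured femurs (labelled aged). The cells were chosen by a gate. A cell had at least 500 genes, at least 1000 unique molecular identifiers (UMIs, each counting 1 captured RNA molecule) and under 25% of its UMIs from mitochondrial genes, carried no UMI of Ptprc, the pan-leukocyte gene CD45, and had at least 150 Cxcl12 UMIs per 10000. This kept 5322 of 9814 deposited cells of the uninjured library and 11213 of 20867 of the ablated library, 16535 of the 57968 cells deposited for the whole series. The gate was proposed with earlier results of these data in view, and Cxcl12, Ptprc and the mitochondrial genes, which it uses, are no findings here.

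All mice carried Lepr-cre and R26R-tdTomato, a reporter that stays switched on in every cell whose lineage has ever made Cre from the leptin receptor gene, so the sort for tdTomato takes in bone, fat and other descendants as well as reticular cells. Femurs were trimmed of the growth plate at the knee and of their upper end, then cut and digested with enzymes, and sorted cells were loaded on a BD Rhapsody system. The other 3 libraries were made at 15 weeks of age: control without surgery, naive with 1 ablation at 13 weeks, and exhausted with ablations at 9 and 13 weeks. Each group is 1 library, and the labels do not say how many mice went into it. No test between groups is therefore possible, and every interval below covers counting error only, at the 95% level.

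Reticular cells, also called CAR cells, wrap the marrow sinusoids and secrete Cxcl12, which holds blood stem cells and B-cell precursors in place, together with stem cell factor (Kitl) and other niche factors. They are also the adult marrow's source of osteoblasts and adipocytes. After the marrow is emptied mechanically, the cavity is known to fill with a clot, then with a burst of woven bone, before the bone is resorbed and blood formation returns.

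Levels are given in CPM, counts per 1e6 UMIs summed over the gated cells of a library, 43530783 UMIs in the uninjured and 125759065 in the ablated library. A gene was called higher or lower when its CPM ratio was at least 2 in either direction, its interval left out 1 and it reached 20 CPM in at least 1 of the libraries. A called gene under 20 CPM in 1 library was measured only through the other, so its difference is what admitted it. "Rose" and "fell" are used for called genes only. Of 6628 genes measured, 119 were called higher in the ablated library (1.8%) and 62 lower (0.935%), and the median log2 ratio over all of them was 0.10. The uninjured library lists 26484 genes and the ablated one 27845, and no source used here says whether both were counted with the same gene reference and software version, which bears on every ratio.

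The gated cells carried reticular markers in both libraries. A Lepr UMI was found in 99.7% of them on either side, and all 10 reticular markers stood above 20 CPM in both, one of which, Cxcl12, is fixed by the gate. The gate took 70.4% of the cells that passed the quality limits in the uninjured library (interval 69.4 to 71.4%) and 57.5% in the ablated one (56.8 to 58.2%). These cells held a median of 7584 and 10044 UMIs and of 2561.5 and 3226 genes, so the ablated library was the deeper one per cell. The median Cxcl12 level in the gate was 387 UMIs per 10000 in the uninjured and 333 in the ablated library. Cells at 500 or over made up 17.9% and 3.80% of the gate, and cells from 150 to 300 made up 23.98% and 35.99%. At the edge of the gate, 77 uninjured and 181 ablated cells lay just outside, between 140 and 150, and 72 and 188 just inside, between 150 and 160. The ablated cells on both sides of that edge were rich in Col1a1, at 11097 CPM outside and 10363 CPM inside, against 1141 and 1067 CPM in the uninjured cells.

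**Figure D1:**
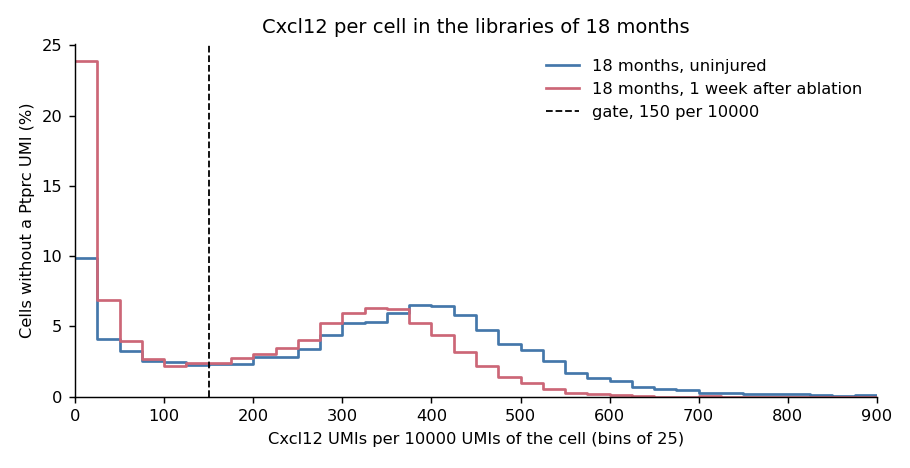
Cxcl12 UMIs per 10000 UMIs of each cell (horizontal axis, bins of 25) against the percentage of cells without a Ptprc UMI (vertical axis) in the uninjured and the ablated library of 18 months; the dashed line is the gate at 150. Both libraries have a hump of high-Cxcl12 cells, whose median lies at 387 in the uninjured and 333 in the ablated library, and the ablated library has the taller peak at 0 to 25.

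RNA of other cells moved with the ablation and has to be read beside every gene below. Blood RNA was the lower in the ablated gate: summed erythroid markers stood at 1643 CPM uninjured and 683 CPM ablated, with a hemoglobin Hbb-bs level of 480 and 179 CPM, and B-cell markers at 37.1 and 5.01 CPM. The 10 T and NK cell markers each stayed under 1 CPM in both. Among other mesenchymal cells, adipocyte markers summed to 80.4 and 479 CPM and chondrocyte markers to 18.2 and 92.4 CPM, both higher after ablation. The osteoblast markers, among them Ibsp and Col1a1, came to 6455 and 6152 CPM and those of pericytes and smooth muscle to 370 and 343 CPM. For comparison, blood cells with at least 3 Ptprc UMIs and under 20 Cxcl12 UMIs per 10000 were taken from the same libraries, 342 uninjured with a median of 8477.5 UMIs and 57 ablated with 10012. Shares of cells below are shares with at least 1 UMI after each cell was thinned to 3000 UMIs. Cells under 3000 UMIs are left out of them, 688 of the uninjured gated cells (12.9%) and 88 of the ablated ones (0.785%). How far RNA of other cells contributes to each difference was not tested beyond the values given.

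Collagen and fibril genes formed the broadest block of change, against shares of 1.8% called higher and 0.935% lower over all genes. Of 26 measured members of the list, 11 rose, none fell and 24 had a ratio above 1, with a median log2 ratio of 0.79 against 0.10 for all genes. A further 5 members were below the level limit, and Fn1 and Postn passed it through the ablated library alone. Col1a1, the main chain of bone and scar collagen, stood at 799 CPM in uninjured and 3744 CPM in ablated cells, a 4.69-fold rise (4.64 to 4.74). It was detected in 64.1% of uninjured and 95.9% of ablated cells at equal depth. Col3a1, the collagen of pliable and healing tissue, rose from 193 to 1217 CPM (6.32-fold, 6.18 to 6.46) and from 29.3% to 70.1% of cells.

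The partner chain Col1a2 stood at 2805 and 4335 CPM, a ratio of 1.55 that was short of the call. The collagen genes Col5a2 (243 to 572 CPM), Col6a3 (45.0 to 159 CPM), Col8a1 (611 to 1243 CPM) and Col12a1 (81.9 to 214 CPM) also rose. So did versican, Vcan, a proteoglycan of provisional matrix, from 24.9 to 91.0 CPM, and periostin, Postn, a matricellular protein of healing bone, from 11.4 to 24.7 CPM. Decorin, Dcn, a small proteoglycan that binds collagen fibrils, went the other way at 829 and 520 CPM without reaching the call.

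The largest ratio among the genes named here belonged to Fn1, fibronectin, the scaffold on which new matrix is laid. It rose from 3.45 to 145 CPM (42.2-fold, 35.9 to 49.9) and from 1.04% to 15.9% of cells. In the blood cells of the ablated library it was found in 19.6% (interval 10.2 to 32.4%) and in those of the uninjured library in 13.4%, so the share in the ablated gate was not above that of blood cells, although blood cells such as monocytes can make Fn1 themselves. Col1a1 was also found in blood cells of the ablated library, in 78.6% of them (65.6 to 88.4%) against 8.81% uninjured. Whether this is free RNA, attached cells or doublets was not tested. Its median was 4.18 UMIs per 10000 in those blood cells and 21.5 in the gated cells of the same library, against 0 and 4.29 in the uninjured library. Col3a1 was in 21.4% of ablated blood cells (11.6 to 34.4%) against 70.1% of the gate.

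Leaving out every gated cell with a UMI of 19 markers of fat, cartilage, mature bone, contractile or endothelial cells, a setting added after the data had been seen, kept 3943 of 5322 uninjured and 4830 of 11213 ablated cells and left the log2 ratio of Col1a1 at 1.92 from 2.23 and of Col3a1 at 2.39 from 2.66. Fn1 went from 5.40 to 4.36. Of the collagen list, 7 rather than 11 members were then called higher, and none lower.

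**Figure D2:**
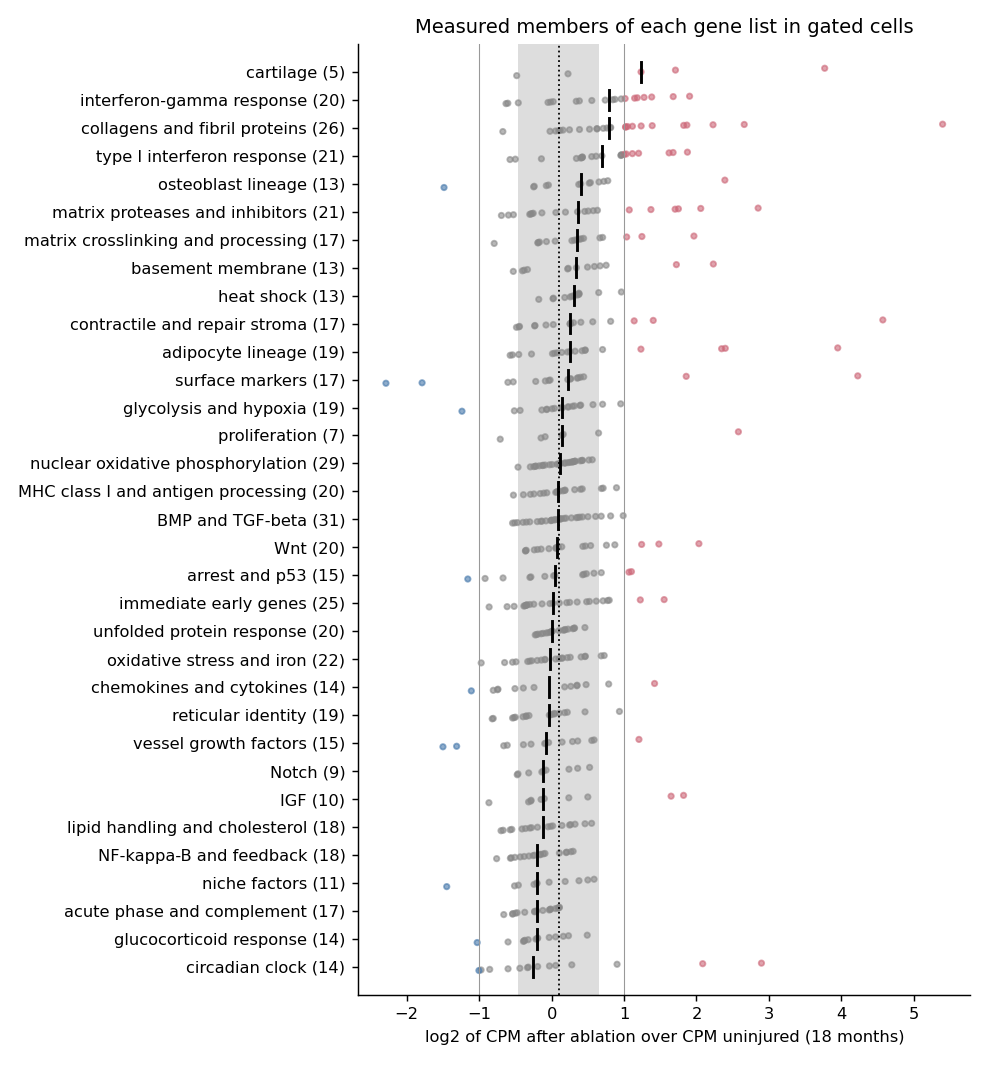
Log2 ratio of CPM in ablated over uninjured gated cells of 18 months (horizontal axis) for the measured members of 33 gene lists (rows, number of measured members in brackets); points past 2-fold are coloured, the black bar is the median of the list, the dotted line the median of all 6628 genes (0.10) and the grey band their 5th to 95th percentile (-0.47 to 0.65). The medians of the collagen, interferon and cartilage lists lie to the right of the band, and the circadian list has members far to the right and to the left of it.

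Some genes that crosslink and remodel matrix also rose. For the counts below, 1.8% of all genes were called higher and 0.935% lower. In the crosslinking list 3 of 17 measured members rose, none fell and 12 had a ratio above 1. P4ha3 among them passed the level limit through the ablated library alone. Lysyl oxidase, Lox, which crosslinks collagen and elastin, went from 661 to 1569 CPM (2.37-fold, 2.34 to 2.40) and from 71.0% to 92.4% of cells. The prolyl hydroxylase chain P4ha3 (10.7 to 41.6 CPM) and the lysyl hydroxylase Plod2 (196 to 402 CPM) were the others, whereas the related oxidase Loxl1 stood lower at 677 and 391 CPM, within 2-fold. Of 21 measured proteases and inhibitors, 6 rose, none fell and 13 had a ratio above 1. Adamts12, Mmp9 and Timp1 of those that rose passed the level limit through the ablated library alone, so the count is a description.

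Mmp13, the collagenase of bone and cartilage, rose from 721 to 2352 CPM (3.26-fold, 3.22 to 3.30) and from 48.3% to 79.8% of cells, with 17.9% (8.91 to 30.4%) in the ablated blood cells. Adamts12, a protease that degrades cartilage oligomeric matrix protein, rose from 10.1 to 72.8 CPM (7.22-fold, 6.56 to 7.96). The gelatinases Mmp2 (53.6 to 180 CPM) and Mmp9 (15.2 to 63.3 CPM), the stromelysin Mmp11 (45.2 to 94.98 CPM) and the inhibitor Timp1 (16.4 to 42.6 CPM) completed the group. Timp3, an inhibitor bound to matrix, stood at 136 and 84.0 CPM, below the call. Beside these lists, Fndc1 (16.3 to 75.4 CPM), the amine oxidase Aoc3 (23.1 to 106 CPM), Nrep (68.0 to 210 CPM) and fibrillin-2, Fbn2 (32.3 to 92.3 CPM), were among the genes with the largest rises at 50 CPM or more.

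Few bone genes were called. Of 13 measured osteoblast-lineage genes 1 rose and 1 fell, beside 1.8% called higher and 0.935% lower over all genes. A ratio above 1 was found for 8 of the 13, and the median log2 ratio was 0.40 against 0.10 for all genes. A further 13 members were below the level limit. The 2 called genes are secreted phosphoproteins of the same family. Osteopontin, Spp1, stood at 104 CPM in uninjured and 546 CPM in ablated cells (5.25-fold, 5.09 to 5.41). Bone sialoprotein, Ibsp, which was found in most uninjured cells, fell from 5078 to 1814 CPM, 2.80-fold lower (2.78 to 2.82), and from 94.6% to 65.0% of cells. Runx2, the master transcription factor of bone, was at 458 and 594 CPM, its partner Sp7 (osterix) at 18.1 and 25.9 CPM, and alkaline phosphatase, Alpl, at 109 and 180 CPM, all within 2-fold.

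Spp1 depended on which cells were counted. In blood cells of the ablated library it averaged 2049 CPM and was found in 23.2% (13.0 to 36.4%), against 36.2% of the gate. With the marker-bearing cells left out its log2 ratio was 1.66, from 2.39. The fall of Ibsp kept its size in all 3 ranges of Cxcl12: the ablated cells were 2.89-fold lower at 150 to 300 UMIs per 10000, 2.63-fold at 300 to 500 and 2.75-fold at 500 or over.

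Some genes of fat and cartilage also rose, among them Car3, whose share of cells was not above that in blood. Car3, a carbonic anhydrase abundant in adipocytes, went from 11.6 to 179 CPM (15.5-fold, 14.2 to 16.9), but from 1.75% to 6.71% of cells, with 10.7% (4.03 to 21.9%) in the ablated blood cells. The fatty acid carriers Fabp4 (53.3 to 271 CPM) and Fabp5 (12.7 to 29.9 CPM) and the fatty acid transporter Cd36 (4.55 to 23.97 CPM) were the other called members of the adipocyte list, 4 of 19. Car3, Fabp5 and Cd36 passed the level limit in the ablated library only. The shares over all genes were 1.8% called higher and 0.935% lower. Pparg, the transcription factor that drives fat cell formation, stood at 118 and 125 CPM and adiponectin, Adipoq, at 4063 and 4177 CPM. With the marker-bearing cells left out, 1 adipocyte-list member was called higher; Car3 is one of those markers, so this setting gives no value for it. Of 5 measured cartilage genes 3 rose, and 15 more were below the level limit, with Col2a1 at 3.35 and 45.8 CPM, while the cartilage transcription factor Sox9 stood at 86.8 and 62.2 CPM. Of the measured cartilage genes 2 passed that limit in 1 library only, Col2a1 through the ablated one. The smooth-muscle actin Acta2 went from 1.10 to 26.2 CPM, in 2.70% of the ablated gate and 8.93% of the ablated blood cells. For Fn1, Car3, Acta2, Col15a1, Ccnd1 and Trp53inp1, 6 of the 36 named genes that rose, the share in blood cells of the ablated library was at or above that in the gate, so no expression by the gated cells is read from those shares. Blood cells of the uninjured library already held some of these genes, Trp53inp1 in 35.3% and Fn1 in 13.4%.

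**Figure D3:**
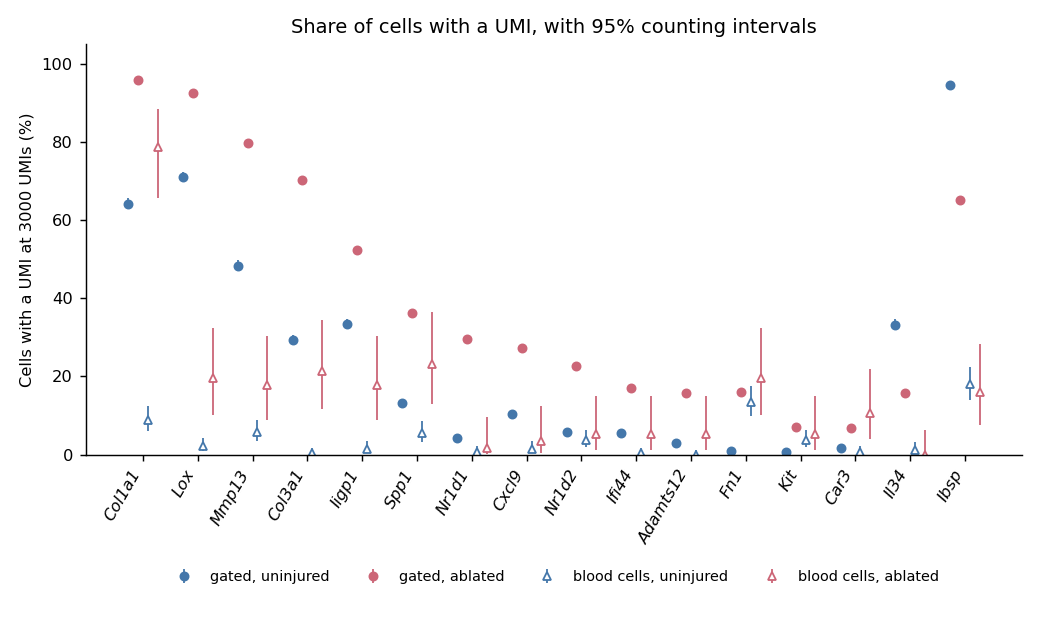
Percentage of cells with at least 1 UMI of each gene after thinning to 3000 UMIs (vertical axis) in gated cells (filled circles) and in blood cells (open triangles) of the uninjured and the ablated library, with exact 95% counting intervals. Nr1d1 and Cxcl9 are far above blood cells in the ablated gate (29.6% against 1.79% and 27.3% against 3.57%), while Fn1, Kit and Car3 are not.

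Interferon-induced genes were higher as well. Among all genes 1.8% were called higher and 0.935% lower. Of 21 measured genes of the type I interferon list 7 rose, none fell and 18 had a ratio above 1 (median log2 ratio 0.69). Of 20 measured genes of the interferon-gamma list 7 rose, none fell and 15 had a ratio above 1 (median 0.79). Below the level limit were 12 and 13 further members, and 5 and 3 of the measured ones passed it in 1 library only. Irf7, Isg15, Ifit1 and Zbp1 of the type I genes that rose and Gbp6 and Igtp of the interferon-gamma genes that rose passed it through the ablated library alone, so their rise is what admitted them and the counts are a description. Interferons act on genes through 2 short DNA elements, the ISRE and the GAS, and induce GTPases and chemokines that restrict microbes and draw in T cells.

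The promoter letters of 4 of the genes that rose are shown because their windows hold that ISRE pattern. They are the 120 bases before the start of the gene on its own strand, from RefSeq on GRCm38.p6, with ISRE matches (GAAA, any 2 bases, then GAAA, on either strand) in capitals. The coordinates, in the order printed, are chr4:156200819-156200938 (minus strand), chr19:34640769-34640888 (plus), chr3:142530216-142530335 (plus) and chr11:48871421-48871540 (minus).
Isg15: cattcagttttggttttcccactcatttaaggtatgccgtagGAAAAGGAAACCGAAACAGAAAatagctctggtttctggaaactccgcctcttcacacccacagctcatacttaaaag
Ifit1: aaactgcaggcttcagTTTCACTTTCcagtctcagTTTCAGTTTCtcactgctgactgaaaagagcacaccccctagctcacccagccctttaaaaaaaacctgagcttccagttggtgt
Gbp7: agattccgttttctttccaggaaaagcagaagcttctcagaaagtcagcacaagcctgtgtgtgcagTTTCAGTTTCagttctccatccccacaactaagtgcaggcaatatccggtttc
Irgm1: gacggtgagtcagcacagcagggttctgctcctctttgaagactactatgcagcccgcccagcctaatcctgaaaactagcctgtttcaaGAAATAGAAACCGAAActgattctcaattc
Overlapping matches run together, 3 in Isg15 and 2 in Irgm1. In windows of 300 bases, 250 before the start and 50 after it, the pattern was found for 3.99% of 27025 genes with a promoter in the table, for 9 of 16 matched genes measured in the type I list and for 10 of 18 in the interferon-gamma list. Among the members that rose it was found in 2 of 5 matched type I genes and 4 of 5 matched interferon-gamma genes. The GAS pattern TTCNNNGAA, which reads the same on both strands, was found for 9.55% of all genes. It was found for 5 of the 16 type I genes and 9 of the 18 interferon-gamma genes. Among the matched members that rose it was found in 0 of 5 type I genes and 2 of 5 interferon-gamma genes. The lists were written as interferon-responsive genes, so a share above that of all genes follows from their choice. Such matches describe the letters and say nothing of binding or of an interferon response in these cells.

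Cxcl9, the interferon-gamma-induced chemokine that attracts T cells through Cxcr3, stood at 183 CPM uninjured and 687 CPM ablated (3.75-fold, 3.66 to 3.83), and in 10.5% and 27.3% of cells against 1.52% and 3.57% of blood cells. Its relative Cxcl10 was at 155 and 278 CPM, a ratio of 1.80. The immunity-related GTPases rose: Iigp1 from 266 to 603 CPM (2.27-fold, 2.23 to 2.32), Irgm1 from 29.7 to 77.4 CPM and Igtp from 18.2 to 40.3 CPM. So did the guanylate-binding proteins Gbp3 (28.7 to 69.6 CPM), Gbp6 (8.43 to 27.0 CPM) and Gbp7 (73.6 to 149 CPM), with Gbp2 just short at 112 and 206 CPM. Ifng itself, the ligand, is among the T and NK cell markers that stayed under 1 CPM.

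On the type I side, the receptor transport protein Rtp4 went from 21.1 to 77.4 CPM (3.67-fold, 3.43 to 3.93), Ifit1, which binds foreign RNA, from 11.6 to 37.1 CPM, Ifi44 from 23.9 to 73.5 CPM and the transcription factor Irf7 from 13.7 to 31.5 CPM. The ubiquitin-like protein Isg15 was at the edge of the call, at 18.7 and 37.4 CPM. Stat2, a carrier of the type I interferon signal, stood at 39.5 and 77.2 CPM, a ratio of 1.95. Not every target moved the same way: Irf1 stood at 899 and 591 CPM, Socs3 at 584 and 378 CPM and Ifitm3 at 1192 and 801 CPM, all lower within 2-fold.

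None of 20 measured MHC class I and processing genes was called, a share that does not stand apart from the 1.8% of all genes called higher, with H2-K1 at 3409 and 3880 CPM, B2m at 3955 and 5304 CPM and Tap1 at 45.5 and 84.6 CPM. Nor was any of 18 NF-kappa-B genes, whose median log2 ratio was -0.20, with the inhibitor Nfkbia at 939 and 555 CPM. Under the alternatives that kept the level limit, 5 to 9 interferon-gamma genes and 5 to 8 type I genes were called higher and none lower.

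The Cxcl9-bearing cells carried more of the other interferon genes. In the ablated gate, after thinning, 3026 cells had a Cxcl9 UMI and 8099 had none. Iigp1 was found in 68.1% of the first and 46.7% of the second, Gbp2 in 44.6% and 22.1%, and Cxcl10 in 21.9% and 7.73%. Col1a1, by contrast, was found in 96.0% and 95.7%, and Adipoq in 98.2% and 97.9%. The uninjured gate had the same order, with 485 cells that had a Cxcl9 UMI and 4149 that had none. There Iigp1 was found in 47.6% and 31.8%, Gbp2 in 34.8% and 18.7%, and Cxcl10 in 21.0% and 7.88%. Each gate comes from 1 library, so these shares describe that library alone. Within the Cxcl12 ranges, the Cxcl9 ratio was 4.27 at 150 to 300, 2.87 at 300 to 500 and 1.87 at 500 or over, so it was smallest where Cxcl12 was highest.

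Among circadian clock genes the Rev-erb pair rose. The clock turns on an activator pair, Arntl (Bmal1) with Clock or Npas2, whose targets include their own repressors: the Per and Cry genes, and Nr1d1 and Nr1d2 (Rev-erb alpha and beta), which shut Arntl and Npas2 off. Nr1d1 rose from 17.8 to 132 CPM (7.45-fold, 6.93 to 8.02) and from 4.29% to 29.6% of cells, with 1.79% in ablated blood cells. Nr1d2 rose from 20.4 to 86.6 CPM (4.25-fold, 3.97 to 4.55). Npas2 fell from 70.3 to 35.1 CPM, 2.00-fold lower (1.91 to 2.10), a value at the edge of the call that was lost with either other scaling, and Arntl, at 34.0 and 17.3 CPM, was 1.96-fold lower. Cry1 stood at 44.5 and 24.6 CPM, Clock at 107 and 78.9 and Per1 at 93.7 and 61.8, lower within 2-fold, while the output regulator Tef was at 18.3 and 34.3 CPM. Dbp (4.30 and 12.8 CPM) and Per3 (3.70 and 11.8 CPM) had ratios of 2.97 and 3.20 below the level limit of 20 CPM.

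Of the 14 measured clock genes, 2 rose and 1 fell, against 1.8% called higher and 0.935% lower over all genes. Their median log2 ratio was -0.26 against 0.10 for all genes, and 9 had a ratio below 1. The level limit was passed in 1 library only by 3 of the 14, among them Nr1d1 through the ablated one. In the 3 young libraries Nr1d1 was at 11.8 CPM in control, 8.37 in naive and 7.39 in exhausted, and Arntl at 31.6, 33.4 and 27.8. The ablated library of 18 months thus had the highest Nr1d1 and the lowest Arntl level of the 5. The Nr1d1 ratio was 6.35, 7.95 and 7.93 in the 3 ranges of Cxcl12. The labels do not give the hour of dissection.

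**Figure D4:**
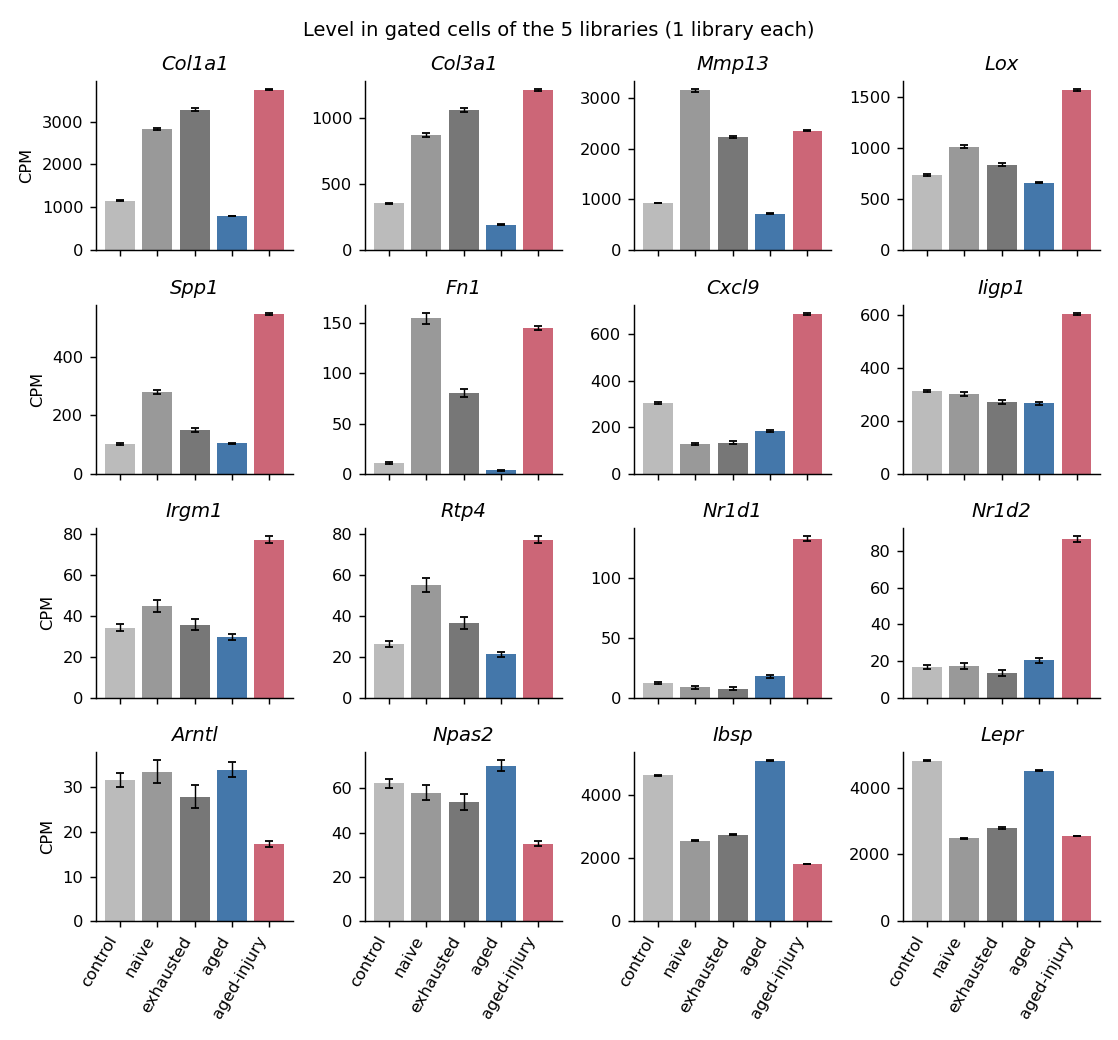
CPM in gated cells (vertical axis, each panel from 0) of 16 genes in the 5 libraries, 1 library each: control, naive and exhausted of 15 weeks (grey), aged (blue) and aged-injury (red) of 18 months, with 95% counting intervals. Col1a1, Col3a1 and Mmp13 are higher in every ablated library than in the uninjured library of its age. Nr1d1, Nr1d2, Iigp1 and Cxcl9 are highest in the ablated library of 18 months, and Cxcl9 is also higher in control than in the uninjured library of 18 months.

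Of 11 measured niche factors, 1 fell, none rose and 4 had a ratio above 1, with a median log2 ratio of -0.20. Over all genes 1.8% were called higher and 0.935% lower, so few calls in so short a list are no finding. The one that fell was Il34, which shares the macrophage growth factor receptor with Csf1, from 157 to 57.5 CPM (2.73-fold lower, 2.64 to 2.82) and from 33.2% to 15.8% of cells. Csf1 stood at 818 and 711 CPM. Stem cell factor, Kitl, was at 2625 and 2279 CPM, the adhesion molecule Vcam1 at 1179 and 827, the lymphoid growth factor Il7 at 147 and 191, and angiopoietin-1, Angpt1, at 246 and 369. None of 19 measured reticular identity genes was called, which does not stand apart from those shares over all genes. Among them were the transcription factors Ebf1 (1029 and 1107 CPM), Ebf3 (1225 and 1232 CPM) and Foxc1 (633 and 510 CPM). The leptin receptor itself, Lepr, was at 4501 and 2550 CPM, a ratio of 0.57 that was just short of the call.

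Secreted signals were rearranged gene by gene. Wnt5a, which signals without beta-catenin, rose from 10.3 to 42.2 CPM (4.10-fold, 3.72 to 4.52). Rspo3, which raises the response to Wnt ligands, rose from 138 to 327 CPM, and Sfrp2, a secreted Wnt-binding protein, from 48.8 to 136 CPM. Hepatocyte growth factor, Hgf, rose 2.31-fold (2.17 to 2.46) and Stc1, stanniocalcin, which blocks the protease that frees IGF, from 12.8 to 45.2 CPM. Among vessel factors, adrenomedullin, Adm, fell from 76.1 to 26.9 CPM (2.83-fold lower, 2.70 to 2.97) and placental growth factor, Pgf, from 39.5 to 15.9 CPM, while Vegfa was at 975 and 921 CPM. The IGF binding protein Igfbp5 stood at 34295 and 18827 CPM, a ratio of 0.55.

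Chemokines outside the interferon group did not rise as a group: Ccl2, which calls in monocytes, was at 392 and 276 CPM and Cxcl1, which calls in neutrophils, at 367 and 219 CPM. Cxcl5, another neutrophil chemokine, rose from 17.9 to 48.1 CPM. The membrane-bound chemokine Cx3cl1 fell from 159 to 73.8 CPM.

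Surface genes gave some of the largest ratios. Kit, the receptor for stem cell factor that marks blood progenitors and mast cells, stood at 2.41 and 45.2 CPM (18.7-fold, 15.4 to 22.9), in 0.669% and 7.11% of gated cells. In blood cells it was found in 3.65% uninjured and 5.36% ablated (1.12 to 14.9%), so the gated share was not shown to exceed that of blood cells, which express Kit themselves. In the ablated gate Kit-bearing cells had Cxcl9 in 41.5% against 26.1% of the other cells, Col3a1 in 81.8% against 69.3% and Ibsp in 27.7% against 67.5%, with Lepr in 97.2% against 98.0%. Leaving those cells out kept 98 of the 119 genes called higher. Ngfr, the nerve growth factor receptor of reticular and Schwann cells, fell from 25.2 to 5.17 CPM (4.88-fold lower, 4.42 to 5.39) and the integrin chain Itga6 from 35.7 to 10.3 CPM.

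Other genes are named for the size of their fall alone. The teneurin Tenm2 fell from 55.5 to 12.3 CPM (4.51-fold lower, 4.23 to 4.81), the netrin receptor Unc5c from 56.0 to 16.2 CPM and the glutamate receptor Grm7 from 59.1 to 20.05 CPM. Tenm2 was also lower in the 3 young libraries than in the uninjured cells of 18 months, at 23.3, 14.0 and 13.5 CPM. The ferritin receptor Scara5 (65.2 to 25.1 CPM) and the nucleotide-sugar receptor P2ry14 (143 to 68.5 CPM) fell as well.

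Of 15 measured genes of growth arrest and p53, 2 rose and 1 fell, against 1.8% called higher and 0.935% lower over all genes. A ratio above 1 was found for 9, the median log2 ratio was 0.05, and 3 passed the level limit in 1 library only. The highest ratio was that of Trp53inp1 (log2 1.10), whose share in ablated blood cells was at or above that in the gate. The cell cycle inhibitor Cdkn1a (p21) stood at 471 and 249.2 CPM, and Gdf15, a stress cytokine, fell from 32.3 to 14.5 CPM. Cdkn2a (p16), a gene known for senescence, had 12 UMIs in the uninjured and 410 in the ablated gate, 0.28 and 3.26 CPM, in 0.129% and 0.620% of cells, below the level limit. The division marker Mki67 was at 2.78 and 11.4 CPM, also below it. No heat shock gene of 13 measured was called, which does not stand apart from the 1.8% higher and 0.935% lower over all genes.

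The size of the differences varied with the Cxcl12 level. Of the 57 called genes among those named, 37 were at least 2-fold different in all 3 ranges of Cxcl12. All 57 had the same direction in each range, which the choice of called genes from the same cells largely fixes. In the top range the interval for Col15a1 was 0.97 to 3.47 and that for Gprc5a 0.49 to 1.01, so both held 1. For Col1a1 the ratio was 4.82, 3.98 and 3.02 from the lowest to the highest range, for Mmp13 2.14, 3.39 and 3.87, for Kit 17.2, 14.8 and 14.0, and for Fn1 33.8, 33.0 and 22.8. Thus Col1a1 was nearest to its uninjured level in the cells richest in Cxcl12, and Mmp13 farthest from it.

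**Figure D5:**
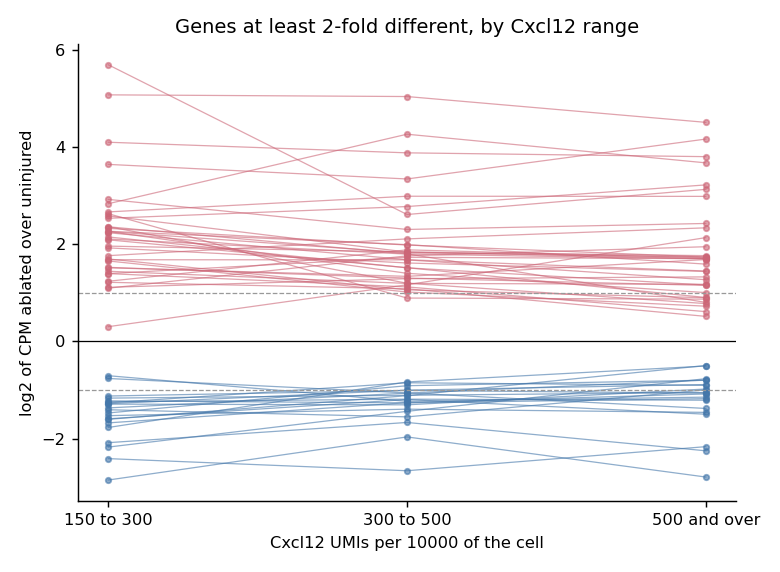
Log2 ratio of CPM in ablated over uninjured cells (vertical axis) within 3 ranges of Cxcl12 UMIs per 10000 (horizontal axis) for the 57 called genes among those named, with genes called higher in red and lower in blue; dashed lines mark 2-fold. No line crosses 0, and 37 of the 57 genes stay past 2-fold in all 3 ranges.

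The naive library followed 1 ablation at another age and interval. Between naive and control cells in the same gate, 126 of 6725 genes were called higher (1.87%) and 91 lower (1.35%). Of the genes called higher at 18 months 44 were also called higher there, 37.0% of the list of 18 months and 34.9% of the young one. Of those called lower 25 were shared, 40.3% and 27.5%. Age and interval since surgery differ together between these pairs, so they cannot be told apart, and no test of the difference exists.

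The matrix genes stood high after ablation at either age: Col1a1 was at 1153 CPM in control, 2816 in naive and 3279 in exhausted cells, and Mmp13 at 930, 3143 and 2220 CPM. Adamts12, at 17.9, 90.4 and 61.0 CPM, and Fn1, at 10.6, 155 and 80.4 CPM, followed the same order of ablated over uninjured. Lox, at 737, 1012 and 838 CPM, was not called in the young pair. In the young pair Alpl, at 147 and 519 CPM, and Sp7, at 20.4 and 57.5 CPM, were both called higher. Dcn fell there from 654 to 104 CPM.

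The interferon-gamma genes had a median log2 ratio of -0.04 in the young pair and the type I genes 0.30, against 0.12 for all genes there. Of 21 type I genes measured there, 1 was called higher, against 1.87% of all genes. Cxcl9 stood at 305 CPM in control, 127 in naive and 133 in exhausted cells, so after ablation it was lower at 15 weeks and higher at 18 months. Iigp1 was at 312, 302 and 272 CPM, Irgm1 at 34.2, 44.7 and 35.7 CPM and Irf1 at 689, 453 and 620 CPM. The ablated library of 18 months thus held the highest level of Iigp1, Irgm1 and Cxcl9 among the 5 libraries, and the uninjured library of 18 months the highest level of Irf1.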

How the data were processed

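Whole-number counts of UMIs per gene and cell were deposited by the authors for 5 libraries, 1 per group, with cell labels in a separate file. Per the submitters' processing notes, Seurat 5.1 and the GRCm39 build were used. The aligner, the counting tool and the cell calling are not stated in the sources used. The 2 libraries of 18 months share 4 numeric cell labels. No doublet caller was applied, and cells over 25000 UMIs were left out in one alternative.

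Counts were summed over gated cells and divided by the library's gated total. Ratios have exact conditional binomial 95% intervals, shares exact Clopper-Pearson ones. UMIs limit but do not remove shared error between cells, so intervals cover counting error only. A gene at 0 was set to a floor of 3 counts. Named genes were a list of 52 and, by rule, the 15 largest called changes each way at 50 CPM or more and the extremes of each list, 149 in all. Members and the 33 lists were chosen with earlier results of these data known. The calculation was tested on simulated counts. Alternatives (15) used edgeR 4.0.16 TMM and DESeq2 1.42.0 median-of-ratios factors, other gates, level limits, weights and thinning, with Python 3.11.15 and R 4.3.3.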

Additional observations from a re-analysis of the deposited data

Results flagged for a closer look

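Cxcl9 moved in opposite directions after ablation at the 2 ages: its ratio of CPM was 3.75 in ablated over uninjured cells of 18 months and 0.42 in naive over control cells of 15 weeks. The difference between these ratios was not tested, since each group has 1 library. Age and interval since surgery also differ together between the pairs, so they cannot be told apart.

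EGFP, a transgene that the labelled genotype does not contain, is listed at 3.66 CPM in the ablated gate of 18 months. It stood at 0.89 CPM in control, 0.68 in naive and 0.30 in exhausted cells, and it is no entry of the uninjured library's gene list, so no ratio to it is given. Whether the gene references of the libraries differ is not stated in the sources used. The reporter the genotype does contain, tdTomato, was at 85.8 CPM in the uninjured and 76.2 CPM in the ablated gate.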

How the results depend on the processing

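Of 15 alternatives, 2 were chosen after seeing the data. The counts of called genes depended on the level limit: at 5 CPM in either library 291 genes were higher and 146 lower, and with no limit 1012 and 1715. Under the 13 other alternatives 85 to 142 genes were higher and 56 to 71 lower. Of the 57 named genes called, 42 to 57 kept the call and none reversed. The fewest were kept when cells with a UMI of another stromal or vessel marker were left out, 79 of the 119 higher and 48 of the 62 lower; Car3, Acta2 and Col2a1 define those cells and have no value there, nor has Kit when cells with a Kit UMI are left out. Cells weighted equally kept 93 and 52. Postn, P2ry14, Zbtb16, Ccnd1 and Npas2 were among the genes that lost the call most often, most of them lying close to 2-fold. TMM and median-of-ratios factors shifted log2 ratios by 0.011 and 0.0070. Depth limits genes such as Cdkn2a, with 12 UMIs in the uninjured gate, and the blood background of the ablated library rests on 57 cells. No paired analysis was possible because each group has 1 library.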

Other observations

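A small set of housekeeping and other genes shifted alike in gated cells and in Ptprc-positive cells of the ablated library. Among called genes with at least 10 CPM in both kinds of cell and a spread under 1.5-fold over the 4 other libraries, 8 were also at least 2-fold different in the same direction in Ptprc-positive cells. The limits of this search were set after the values had been seen. The ribosomal protein gene Rpl10 stood at 113 to 120 CPM in the gated cells of the other 4 libraries and at 232 CPM in the ablated library of 18 months, and in Ptprc-positive cells at 180 to 213 and 375 CPM. Its processed copy Rpl10-ps3 went the other way, at 41.4 to 44.1 and 20.2 CPM in gated cells and at 65.1 CPM or more and 28.8 CPM in Ptprc-positive cells. Rack1, a ribosome-bound scaffold protein, was at 151 to 187 and 308 CPM in gated cells, and Rps19 at 146 to 185 and 298 CPM.

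Cox17, a copper carrier of cytochrome oxidase, stood at 24.6 to 25.9 CPM in the gated cells of the other libraries and at 12.4 CPM in the ablated library of 18 months, and in Ptprc-positive cells at 63.6 to 75.6 and 25.5 CPM. Ctla4, a T-cell inhibitory receptor, was lower in both kinds of cell, as were Col19a1 and Nos1ap. These 8 genes, some of which have near-identical copies whose reads can be divided in more than one way, are among the 119 and 62 called above and are uncertain as results about reticular cells. Over the ribosomal protein genes as a whole, 69 of 76 measured had a ratio above 1, with a median log2 ratio of 0.36.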
